A study of Mus musculus with 20 samples.

Results

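The collagen genes of the mouse salivary gland comprised 42 of the 18194 genes that could be followed on the arrays. They were chosen by name alone, as every gene whose symbol has the form of a collagen chain (Col, the type, a, the chain), with 9 fibrillar genes (types 1, 2, 3, 5 and 11), 8 basement membrane genes (types 4, 15 and 18) and 25 genes of other types. The classes follow these type numbers alone. The other types, Col24a1 and Col27a1 among them, were not judged by whether their products form fibrils. Each gene was read from its brightest probe set, judged by the mean of 20 arrays. The reference holds 44 genes of this form, and Col28a1 and Col6a6 were not represented by a probe set with a single symbol.

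Collagens are secreted proteins whose chains wind into a helix and then assemble outside the cell. Fibrillar collagens, made mostly by fibroblasts, form the load-bearing fibres of the stroma and of the gland's capsule and septa. Type 4 collagen forms the network of the basement membrane that underlies acini, ducts, nerves and blood vessels, and the type 15 and 18 collagens link that layer to the surrounding stroma. During postnatal growth of a gland both compartments are laid down and remodelled, and many collagens are long-lived once deposited.

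Salivary glands, freed of lymph nodes, came from C57BL/6J mice that were 4, 8, 12 or 16 weeks old, 5 animals per age, each on an array of its own. The strain carried no transgene or treatment per the labels and served as the healthy background strain for an autoimmune strain that was not analysed here. Expression was measured as log2 signal after robust multi-array averaging (RMA), so that a difference of 1 is a doubling. The labels give no litter, batch or cage, and age cannot be told apart from any batch that followed it.

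All mice were labelled male, but the arrays went against this label. Xist, the RNA of the inactive X chromosome, had signals of 8.96 to 10.7 on all 20 arrays, above at least 96.25% of genes, while Eif2s3y, a gene of the Y chromosome, did not pass the 4.47th percentile on any array. Kdm5d and Uty, also of the Y chromosome, had signals of 3.65 to 4.75 and 4.58 to 5.76. Xist was high at every age, so that no age stood apart by it. Acinar products were bright, with Aqp5, the water channel of the acini, at the 99.04th percentile of mean signal and Smgc, a submandibular secretory protein, at the 99.83rd. The SD of all gene values, a measure of how widely signals were spread on an array, was 1.55 to 1.90 at 4 weeks, 1.38 to 1.60 at 8 weeks, 1.60 to 1.67 at 12 weeks and 1.39 to 1.75 at 16 weeks. The 20 arrays correlated with each other at 0.792 to 0.983 and no arrays were identical.

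The 8-week-old glands had less signal than the 4-week-old glands for 3 of 9 fibrillar and 4 of 8 basement membrane genes. Of 42 collagen genes, 7 were lower and 1 was higher at 8 than at 4 weeks at an adjusted p under 0.05 (limma with Benjamini-Hochberg adjustment, taken across the 18194 genes), against a background of 4.13% of all genes lower and 3.26% higher. The lower genes were Col3a1, Col1a2 and Col5a2 among the fibrillar genes and Col4a1, Col4a2, Col4a5 and Col15a1 among the basement membrane genes, and the higher gene was Col4a3. None of the 25 other collagen genes passed the test, and 24% of them had an unadjusted p under 0.05, against 32.4% of all genes. At this unadjusted level, 10 of the 42 collagen genes were lower (23.8%, against 15.5% of all genes) and 6 were higher (14.3%, against 16.9%).

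The values at 8 and 4 weeks did not overlap for all 7 lower genes, for Col4a3 and for Col4a6, compared with 1.96% of all genes lower and 3.79% higher without overlap. The median log2 fold change was -0.20 over the fibrillar genes, -0.55 over the basement membrane genes and -0.08 over the others, beside 0.05 over all genes. In bulk tissue, fewer cells of a type and less RNA per cell cannot be told apart.

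**Figure D1:**
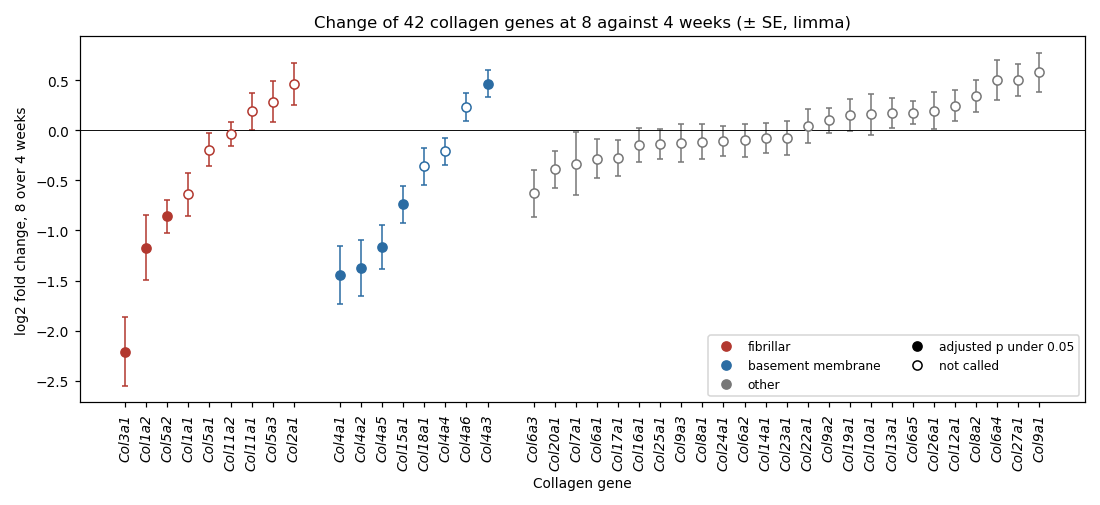
Log2 fold change of each of the 42 collagen genes at 8 over 4 weeks with its standard error, from the fit to all 20 arrays, ordered within the 3 classes. Filled points passed the adjusted p, and lie at or below -0.74 except Col4a3 at 0.46.

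Stretches before a start site of 4 of the lower genes are shown, 2 fibrillar and 2 of the basement membrane, as examples from genes called at 8 against 4 weeks. Each is the 250 bases before an annotated start site in RefSeq (build GRCm38.p6), with known promoter motifs in capitals. The genes Col15a1 and Col4a5 are annotated from bases 47207655 and 141475370. The stretch of Col15a1 thus lies inside the gene, and that of Col4a5 reaches into it. The motifs searched for on both strands were the TATA box, spelled TATAAA, the CCAAT box, spelled by its name, and the GC box, spelled GGGCGG. Upstream stretches were held for 33 of the 42 genes, and of the lower genes Col5a2 was not among them.
Col3a1, chr1:45311288-45311537, plus strand: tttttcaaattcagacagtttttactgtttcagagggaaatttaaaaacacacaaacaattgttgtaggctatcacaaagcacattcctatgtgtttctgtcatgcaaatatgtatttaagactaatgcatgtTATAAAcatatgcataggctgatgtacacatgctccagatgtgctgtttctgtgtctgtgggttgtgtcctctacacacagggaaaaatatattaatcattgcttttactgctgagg
Col1a2, chr6:4505368-4505617, plus strand: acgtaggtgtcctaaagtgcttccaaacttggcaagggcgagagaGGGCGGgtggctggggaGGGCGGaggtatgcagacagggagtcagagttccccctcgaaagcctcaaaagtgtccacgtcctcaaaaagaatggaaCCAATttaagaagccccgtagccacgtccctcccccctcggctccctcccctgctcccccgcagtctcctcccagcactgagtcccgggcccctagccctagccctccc
Col15a1, chr4:47207762-47208011, plus strand: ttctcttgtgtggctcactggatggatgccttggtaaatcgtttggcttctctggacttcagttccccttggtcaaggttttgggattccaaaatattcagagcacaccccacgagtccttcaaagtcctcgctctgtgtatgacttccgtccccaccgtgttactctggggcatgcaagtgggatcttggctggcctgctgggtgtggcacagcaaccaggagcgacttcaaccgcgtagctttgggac
Col4a5, chrX:141475169-141475418, plus strand: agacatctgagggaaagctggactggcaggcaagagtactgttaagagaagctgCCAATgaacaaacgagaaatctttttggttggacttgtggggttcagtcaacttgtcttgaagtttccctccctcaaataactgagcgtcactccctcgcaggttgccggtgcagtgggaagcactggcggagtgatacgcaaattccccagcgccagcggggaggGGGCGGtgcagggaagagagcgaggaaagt
The stretch of Col3a1 held a single motif, TATAAA at -117 to -112 from the start site, while that of Col1a2 held CCAAT at -109 to -105 and 2 copies of GGGCGG, at -205 to -200 and at -188 to -183. Col4a5 held CCAAT at -196 to -192 and GGGCGG at -30 to -25, and Col15a1 held none of these letters in this window. The motifs did not overlap each other. Among all 32851 windows of this length, 12.4% held TATAAA, 33.85% CCAAT and 32.7% GGGCGG. Among the 36 windows of the 33 collagen genes the shares were 13.9%, 36.1% and 58.3%, and no test was made of them. A match is a description of the letters and not a site. Col4a1 and Col4a2 lie head to head on chromosome 8, with annotated start sites 21 bases apart and on opposite strands, so that the upstream stretch of one is the transcribed start of the other.

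Of the fibrillar genes, Col3a1 showed the largest difference at 8 weeks. It encodes the chain of type 3 collagen, abundant in the pliable stroma of growing tissue. Its log2 signals were 9.40, 9.29, 9.05, 10.48 and 10.21 at 4 weeks, 7.47, 7.64, 6.95, 8.41 and 6.92 at 8 weeks, 7.57, 7.58, 7.66, 8.46 and 8.25 at 12 weeks, and 8.29, 7.24, 7.34, 6.38 and 7.58 at 16 weeks. Every mouse at 4 weeks lay above every mouse of any later age. The log2 fold change at 8 against 4 weeks was -2.21 (SE 0.34, adjusted p = 0.00445), or 0.216 of the 4-week level.

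Col1a2 encodes the second chain of type 1 collagen, the main fibre of stroma. Its signals were 7.90, 7.96, 8.36, 7.77 and 8.38 at 4 weeks, 6.80, 6.93, 6.97, 7.46 and 6.34 at 8 weeks, 6.98, 7.68, 7.03, 7.72 and 8.09 at 12 weeks, and 9.05, 7.14, 7.12, 6.72 and 7.55 at 16 weeks. All mice at 8 weeks lay below those at 4 weeks, but at 12 and 16 weeks the values spread into the 4-week range, with replicate 1 at 16 weeks the highest of all 20. The log2 fold change was -1.17 at 8 weeks (SE 0.33, adjusted p = 0.0392).

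Col1a1, which encodes the partner chain, had a smaller difference at 8 weeks, which did not pass the test. Its signals were 6.69, 6.70, 6.09, 6.89 and 6.85 at 4 weeks, 5.84, 6.67, 5.52, 5.96 and 6.03 at 8 weeks, 5.70, 5.85, 5.89, 6.14 and 5.61 at 12 weeks, and 6.47, 5.31, 5.96, 5.61 and 5.90 at 16 weeks. At 4 weeks 1 mouse stood low, and at 8 and at 16 weeks 1 mouse stood high, so that the ages overlapped. Its log2 fold change was -0.64 at 8 weeks (SE 0.22, adjusted p = 0.0647).

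Col5a2, a chain of the type 5 collagen that sits inside type 1 fibrils and helps to set their width, had signals of 6.26, 6.44, 6.64, 7.01 and 6.65 at 4 weeks, 5.78, 5.70, 5.42, 6.07 and 5.74 at 8 weeks, 5.77, 5.89, 6.07, 5.92 and 6.24 at 12 weeks, and 6.39, 5.64, 5.72, 5.66 and 5.78 at 16 weeks. Apart from replicate 1 at 16 weeks, every later mouse lay below the 4-week mice. A log2 fold change of -0.86 was found at 8 weeks (SE 0.17, adjusted p = 0.0180). The partner chain Col5a1 had -0.20 (adjusted p = 0.408) and Col5a3 had 0.28 (adjusted p = 0.328). The cartilage-type genes Col2a1, Col11a1 and Col11a2 had 0.46, 0.19 and -0.03, and none of these 5 passed the test.

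**Figure D2:**
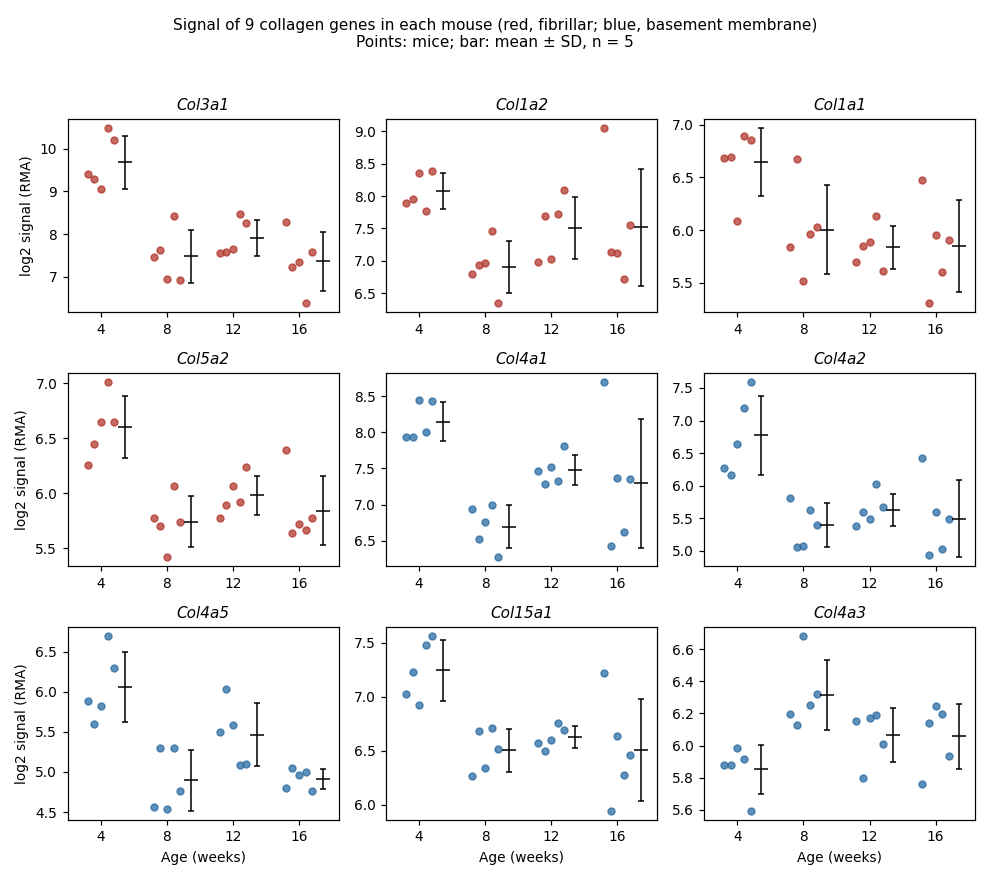
Log2 signal of 9 collagen genes in each of 5 mice at 4, 8, 12 and 16 weeks, with the mean and SD beside the points. The 4-week mice lie above the 8-week mice in all panels but Col4a3, where they lie below, and Col1a1, where the ages overlap.

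Of the basement membrane genes, the paired chains Col4a1 and Col4a2, which build the type 4 network present in nearly all tissues, were both lower at 8 weeks. Col4a1 had signals of 7.93, 7.93, 8.44, 8.00 and 8.42 at 4 weeks, 6.94, 6.53, 6.76, 6.99 and 6.28 at 8 weeks, 7.46, 7.29, 7.53, 7.33 and 7.82 at 12 weeks, and 8.69, 6.43, 7.37, 6.62 and 7.35 at 16 weeks. The first 3 ages did not overlap, with 12 weeks between the others, while the 16-week mice reached from the range of the 8-week mice to above all others. Relative to 4 weeks this was a log2 fold change of -1.45 (SE 0.29, adjusted p = 0.0185).

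Col4a2 had signals of 6.28, 6.16, 6.63, 7.19 and 7.59 at 4 weeks, 5.81, 5.06, 5.08, 5.63 and 5.39 at 8 weeks, 5.38, 5.60, 5.49, 6.03 and 5.67 at 12 weeks, and 6.43, 4.93, 5.59, 5.03 and 5.50 at 16 weeks. Here the 12-week mice stayed below the 4-week mice, and again only replicate 1 at 16 weeks reached into their range. Its difference at 8 weeks was -1.38 on the log2 scale (SE 0.28, adjusted p = 0.0185).

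Col4a5, a chain of a more restricted type 4 network, had signals of 5.88, 5.60, 5.82, 6.70 and 6.30 at 4 weeks, 4.57, 5.30, 4.54, 5.30 and 4.76 at 8 weeks, 5.50, 6.04, 5.59, 5.09 and 5.10 at 12 weeks, and 4.80, 5.05, 4.96, 5.00 and 4.76 at 16 weeks. The 8-week and 16-week mice all lay below the 4-week mice, with the 12-week mice in between and overlapping both neighbours at 4 and 8 weeks. At 8 weeks it differed by -1.17 on the log2 scale (SE 0.22, adjusted p = 0.0170). Col4a6, whose start site lies 1343 bases from that of Col4a5 on the X chromosome, ran the other way without passing the test, at 6.16 to 6.40 at 8 weeks against 5.74 to 6.13 at 4 weeks, a log2 fold change of 0.23 (adjusted p = 0.241).

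Col15a1, which encodes a proteoglycan collagen of the outer face of basement membranes, had signals of 7.03, 7.23, 6.92, 7.48 and 7.57 at 4 weeks, 6.27, 6.69, 6.34, 6.71 and 6.51 at 8 weeks, 6.57, 6.50, 6.60, 6.76 and 6.70 at 12 weeks, and 7.22, 5.94, 6.64, 6.28 and 6.46 at 16 weeks. Only replicate 1 at 16 weeks reached the 4-week range. This gave -0.74 at 8 weeks on the log2 scale (SE 0.19, adjusted p = 0.0307). Col18a1, the related gene whose product is the source of endostatin, had -0.36 (SE 0.19, adjusted p = 0.185).

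Col4a3, a chain of the network best known from the kidney glomerulus, was the one collagen gene that was higher at 8 weeks. Its signals were 5.88, 5.88, 5.99, 5.92 and 5.59 at 4 weeks, 6.20, 6.13, 6.68, 6.25 and 6.32 at 8 weeks, 6.15, 5.80, 6.17, 6.19 and 6.01 at 12 weeks, and 5.76, 6.14, 6.25, 6.20 and 5.93 at 16 weeks. The 8-week mice lay just above the 4-week mice, and the later ages overlapped both. The log2 fold change was 0.46 at 8 weeks (SE 0.13, adjusted p = 0.0420), and this call was lost under 7 of 10 other settings and without any of 7 of the 20 mice, with values of 0.28 to 0.51 over these settings and mice. Col4a4, its head-to-head partner, had -0.21 (adjusted p = 0.274).

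Among the 25 collagen genes of other types, 13 had negative and 12 positive log2 fold changes at 8 weeks, with extremes of -0.63 for Col6a3 and 0.58 for Col9a1. Col6a3, a chain of the beaded microfibrils around cells, ranged over 6.03 to 6.62 at 8 weeks (median 6.36), against 6.34 to 7.72 at 4 weeks (median 6.76), with an adjusted p of 0.0835. Col9a1, a chain of a fibril-associated collagen best known from cartilage, ranged over 6.33 to 7.34 at 8 weeks (median 7.06), against 6.07 to 6.74 at 4 weeks (median 6.22), with an adjusted p of 0.0653. Col27a1 ranged over 6.44 to 6.96 at 8 weeks, against 6.02 to 6.46 at 4 weeks (log2 fold change 0.50, adjusted p = 0.0527). These 3 sets of values overlapped between the ages. Col24a1 and Col6a5 had mean signals below all but 0.187% and 1.07% of genes.

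Other measures moved with these calls. In the brightest decile of all genes the median difference at 8 against 4 weeks was -0.49 on the log2 scale, and Col3a1, Col1a2 and Col4a1 belonged to it. Col15a1 lay in the next decile, with a median of -0.25, while Col4a2, Col4a5 and Col5a2 lay in deciles with medians of 0.05, 0.09 and 0.00. With the SD of gene values of each array as a covariate, Col3a1 was the only collagen gene of 42 that was called at 8 weeks (log2 fold change -1.52, SE 0.28, adjusted p = 0.0259), when 16 genes in all were called. The 6 other lower genes then kept negative values, between -0.41 for Col15a1 and -1.04 for Col4a5. In the 12 arrays with an SD from 1.5 to 1.7, a subset chosen after seeing the data with 3, 3, 5 and 1 mice at 4, 8, 12 and 16 weeks, none of the 42 genes and 1 gene of all was called, and Col3a1 and Col4a1 had -1.41 and -1.28.

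The count of lower genes at 8 weeks was 1 in place of 7, with Col3a1 remaining, without replicate 4 or 5 at 4 weeks or replicate 3 or 5 at 8 weeks, when 14 to 22 genes in all were called. Without any other mouse it was 7 or 8. The log2 fold change of Col3a1 stayed between -2.44 and -2.01 whichever mouse was left out, and that of Col4a1 between -1.52 and -1.34. When the 10 arrays of the 2 ages alone were fitted, 2 genes of all passed, among them Col4a1 as the one collagen gene (adjusted p = 0.0282), and Col3a1 had an adjusted p of 0.0573. The part of the spread of signal in these results was not separated from age beyond these values.

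**Figure D3:**
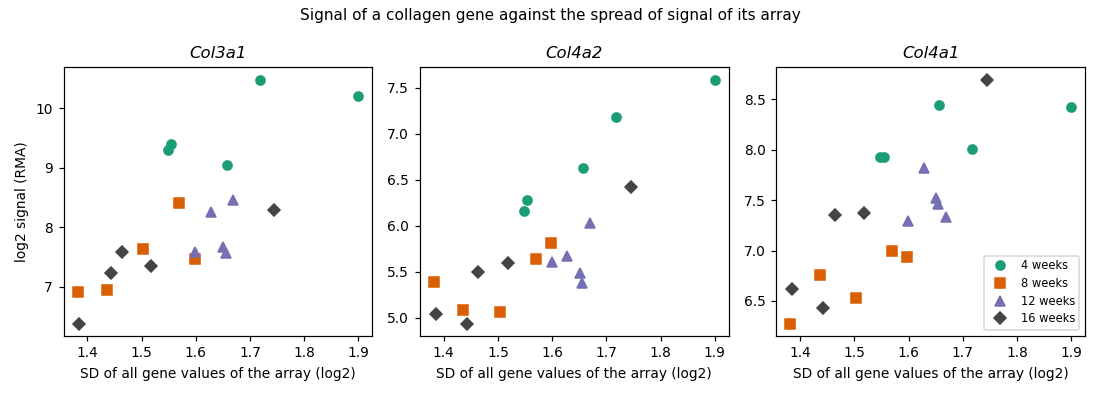
Log2 signal of Col3a1, Col4a2 and Col4a1 in each mouse (vertical axis) against the SD of all gene values of its array (horizontal axis, log2 units), with ages by colour and shape. The Col3a1 points of 4 weeks lie above those of all later ages, while the 8-week arrays (SD up to 1.598) and the 12-week arrays (SD from 1.599) share no range of spread.

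Marker genes of other cell types were examined in the same comparison, in which 4.13% of all genes were lower and 3.26% higher. Of 8 fibroblast genes, Lum and Postn were lower and none was higher at 8 weeks, and the mean signal over the list was 5.83 to 6.27 at 8 weeks, against 6.40 to 6.90 at 4 weeks. Of 5 pericyte and smooth muscle genes, Rgs5 (log2 fold change -0.99, adjusted p = 0.0246) and Myh11 (-1.12, adjusted p = 0.0415) were lower, with a list mean of 5.75 to 6.33 at 8 weeks, against 6.11 to 6.47 at 4 weeks. Des, Notch3 and Cspg4 had 0.52, 0.01 and -0.08 (adjusted p = 0.0736, 0.963 and 0.797), and the median over the list was -0.08. None of 6 endothelial genes was called, with list means of 4.52 to 4.77 at 8 weeks, against 4.44 to 4.92 at 4 weeks. Of 3 proliferation genes, Mki67, a marker of dividing cells, was lower at 8 weeks (-0.70, adjusted p = 0.0264). Top2a went the other way and Cdk1 did not pass, at 0.40 and -0.255 (adjusted p = 0.225 and 0.260). The list means overlapped, at 5.32 to 5.55 at 8 weeks, against 5.36 to 5.86 at 4 weeks. Of 5 cartilage genes, Matn3 was higher (0.73, adjusted p = 0.0275), while Acan, Matn1, Hapln1 and Cnmd lay at or below the 16.23rd percentile of mean signal and the bone genes Ibsp and Dmp1 at or below the 4.28th. Of 4 leukocyte genes, Cd3e was higher (0.41, adjusted p = 0.0446). None of the 5 acinar or 6 myoepithelial genes was called. Their list means overlapped between the ages, at 9.16 to 10.14 for the acinar list at 8 weeks, against 9.68 to 11.24 at 4 weeks, and at 6.87 to 7.37 for the myoepithelial list at 8 weeks, against 7.03 to 7.87 at 4 weeks. The median log2 fold change was -0.82 over the acinar genes and -0.34 over the myoepithelial genes, beside -0.46 over the fibroblast genes. None of the skeletal muscle, adipocyte or Schwann cell genes examined was called. The part of these cell types in the collagen results was not tested.

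Between 8 and 12 weeks, none of the 42 genes was called, with 0.0055% of all genes called in either direction. At an unadjusted p under 0.05, 3 collagen genes were higher (7.14%, against 11.1% of all genes) and 0 lower (against 7.74%). Col4a1 was the one gene whose values did not overlap, at 7.49 ± 0.21 at 12 weeks and 6.70 ± 0.30 at 8 weeks (SD, n = 5 each), where 3.39% of all genes were higher without overlap. Its log2 fold change was 0.79 (SE 0.29, adjusted p = 0.184). With the 2 ages fitted alone it passed (adjusted p = 0.0446), when 274 genes in all were called. The next in size were Col7a1, the anchoring fibril collagen, at 0.66, Col1a2 at 0.60 and Col4a5 at 0.57 (adjusted p = 0.263, 0.318 and 0.191). Col3a1 and Col5a2 had 0.43 and 0.24, Col4a6 had -0.26, and Col22a1 and Col13a1 had -0.31 and -0.30. The median of the brightest decile of all genes was 0.50 here.

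Between 12 and 16 weeks, again none was called, with 0.192% of all genes called in either direction, and at an unadjusted p under 0.05 there were 1 lower (2.38%, against 9.99% of all genes) and 2 higher (4.76%, against 4.18%). Col4a5 was the one gene without overlap, at 4.92 ± 0.13 at 16 weeks and 5.46 ± 0.39 at 12 weeks (SD, n = 5 each), where 1.86% of all genes were lower without overlap. Its log2 fold change was -0.55 (SE 0.22, adjusted p = 0.275). Col3a1 had -0.54, Col5a3 0.47, Col2a1 0.25, Col4a1 -0.19 and Col4a2 -0.14, and among the other types Col22a1 had 0.38, Col9a1 0.35 and Col12a1 0.26, all with an adjusted p of 0.307 or more. For 16 against 8 weeks, 0% of all genes and none of the collagen genes was called, and no collagen gene had an unadjusted p under 0.05, against 5.81% of all genes.

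**Figure D4:**
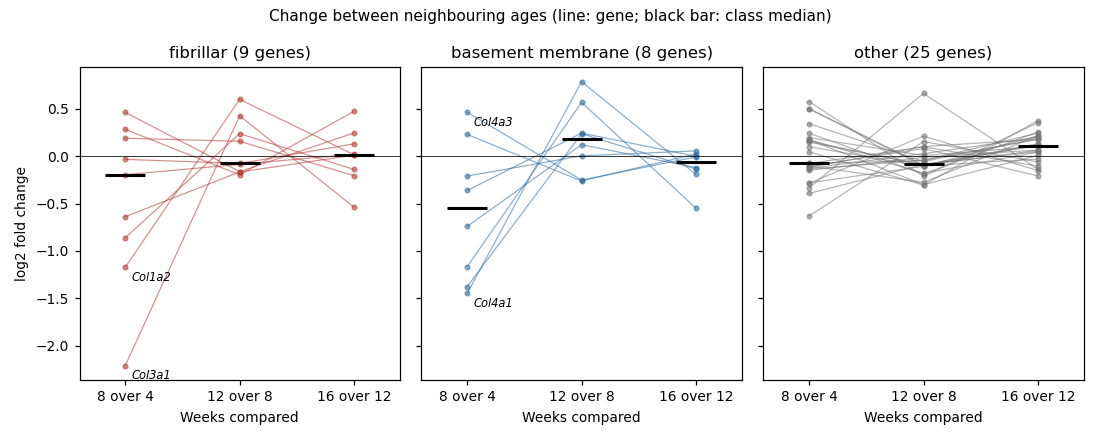
Log2 fold change of each collagen gene (line) in the 3 neighbouring comparisons, by class, with the class median as a black bar. The comparisons share the 8-week and 12-week mice, so that a low value at 8 weeks enters both 8 over 4 and 12 over 8. Only the first comparison holds called genes, and the medians of the basement membrane genes are -0.55, 0.18 and -0.06.

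Each later age was also set against 4 weeks. At 12 weeks Col3a1 alone was called, with 7.90 ± 0.42 at 12 weeks and 9.69 ± 0.62 at 4 weeks (SD, n = 5 each, log2 fold change -1.78, SE 0.34, adjusted p = 0.0441), where 0.0275% of all genes were lower and 0.066% higher. At an unadjusted p under 0.05, 10 collagen genes were lower at 12 than at 4 weeks (23.8%, against 4.01% of all genes). These were 3 fibrillar, 4 basement membrane and 3 other genes, and 1 gene was higher (2.38%, against 5.02%). The mean SD of gene values was 1.64 at 12 weeks and 1.68 at 4 weeks, but single arrays differed more. They ran from 1.60 to 1.67 at 12 weeks and from 1.55 to 1.90 at 4 weeks. Replicates 4 and 5 at 4 weeks had the widest spread of their age (1.72 and 1.90) and the highest Col3a1 signals (10.48 and 10.21). With the spread as a covariate, Col3a1 (-1.65, adjusted p = 0.00106) and Col4a2 (-1.01, adjusted p = 0.00129) were called in this comparison, when 110 genes in all were called. Without the covariate, the call of Col3a1 was lost on leaving out any of 16 of the 20 mice, of all 4 ages (adjusted p up to 0.146), while its log2 fold change stayed between -1.94 and -1.58.

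At 16 weeks 6 genes were lower than at 4 weeks, with 3.12% of all genes lower, and 1 was higher, with 0.506% of all genes higher. The lower genes were Col3a1 (-2.32, adjusted p = 0.00230), Col4a2 (-1.27, adjusted p = 0.0189), Col4a5 (-1.15, adjusted p = 0.0110), Col1a1 (-0.79, adjusted p = 0.0452), Col5a2 (-0.76, adjusted p = 0.0191) and Col15a1 (-0.74, adjusted p = 0.0354). Col1a2 and Col4a1 were not among them. Col1a2 averaged 7.52 at 16 weeks, against 6.90 at 8 weeks and 8.07 at 4 weeks. Col4a1 averaged 7.29 at 16 weeks, against 6.70 at 8 weeks and 8.15 at 4 weeks. Both means thus lay nearer to the 4-week mean at 16 than at 8 weeks. The SDs of Col1a2 and Col4a1 at 16 weeks were 0.91 and 0.89, against 0.28 and 0.27 at 4 weeks. The part of this scatter was not tested. Without replicate 1 at 16 weeks, 12 collagen genes were called in place of 7, and 2 were called without replicate 4 or 5 at 4 weeks or replicate 2 or 4 at 16 weeks. The counts over all genes without these mice are not given, so these counts have no background beside them.

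The higher gene at 16 weeks was Col9a1. Its signals were 6.22, 6.21, 6.74, 6.42 and 6.07 at 4 weeks, 6.72, 7.06, 7.10, 6.33 and 7.34 at 8 weeks, 6.56, 6.98, 6.78, 6.59 and 6.57 at 12 weeks, and 6.80, 7.19, 6.89, 7.66 and 6.70 at 16 weeks. At 16 weeks 1 mouse fell just within the 4-week range, and 4 lay above it. The log2 fold change was 0.72 (SE 0.20, adjusted p = 0.0456), but with the mean of both probe sets of the gene it was 0.37 (adjusted p = 0.160), and the dim second probe set alone had 0.02. The call was also lost on leaving out any of 14 of the 20 mice.

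The mean of 8, 12 and 16 weeks against 4 weeks gave 7 lower and 0 higher genes, with 2.24% of all genes lower and 0.929% higher. These were Col3a1 (-2.10, SE 0.28, adjusted p = 0.000822), Col4a2 (-1.26, adjusted p = 0.0112), Col4a1 (-0.99, adjusted p = 0.0369), Col4a5 (-0.97, adjusted p = 0.0113), Col5a2 (-0.75, adjusted p = 0.0112), Col1a1 (-0.75, adjusted p = 0.0349) and Col15a1 (-0.70, adjusted p = 0.0253). With the spread as a covariate, Col3a1, Col4a2, Col4a5 and Col5a2 were still called, when 90 genes in all were called. Without replicate 4 or 5 at 4 weeks 1 collagen gene was called, and the count over all genes without these mice is not given. Over the 4 ages, 5 collagen genes passed the F-test, Col3a1, Col4a1, Col4a2, Col4a5 and Col5a2, with 2.6% of all genes called. These contrasts share the 4-week mice and are not independent of each other.

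The classes were also summarised by mouse, with no test. The median of the fibrillar genes, each set to its own mean of the 20 mice, was 0.04 to 0.59 at 4 weeks, -0.32 to -0.04 at 8 weeks, -0.20 to 0.14 at 12 weeks and -0.18 to 0.18 at 16 weeks. That of the basement membrane genes was 0.15 to 0.61 at 4 weeks, -0.48 to 0.03 at 8 weeks, -0.14 to 0.05 at 12 weeks and -0.42 to 0.23 at 16 weeks. For both classes the 4-week and 8-week mice did not overlap. That of the other genes was -0.11 to 0.02 at 4 weeks, -0.07 to 0.17 at 8 weeks, -0.17 to 0.13 at 12 weeks and -0.17 to 0.15 at 16 weeks, and these ages overlapped throughout.

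**Figure D5:**
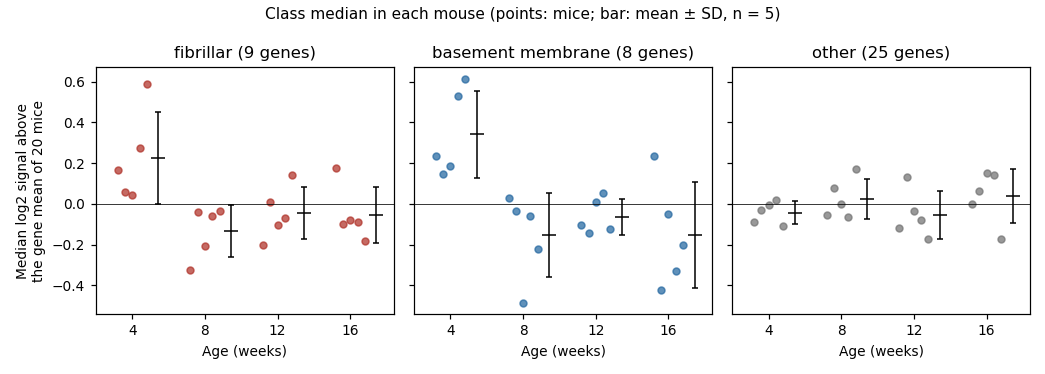
Median over the genes of a class of the log2 signal above the gene's own mean of 20 mice, for each mouse at 4, 8, 12 and 16 weeks, with mean and SD beside the points. The fibrillar and basement membrane medians at 4 weeks are all above 0, and replicate 1 at 16 weeks is the highest of its age in both.

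Chains that share a trimer, or genes that are close relatives, were compared across the 20 mice after centring each gene on the mean of its age, in 9 pairs with p adjusted over the pairs (permutation within ages, 100000 resamples, two-sided). Col4a1 and Col4a2 went together (Pearson r = 0.70, p = 0.00344, adjusted p = 0.0155, Spearman rho = 0.67, p = 0.00755, adjusted p = 0.0340 by permutation), as did Col6a1 and Col6a3 (r = 0.60, p = 0.00034, adjusted p = 0.00306, rho = 0.71, p = 0.00037, adjusted p = 0.00333 by permutation). Col15a1 and Col18a1 had r = 0.72 (p = 0.00763, adjusted p = 0.0229) and rho = 0.57 (p = 0.0270, adjusted p = 0.0607 by permutation). Col3a1 and Col1a1 had r = 0.57 (p = 0.0254, adjusted p = 0.0570) and rho = 0.56 (p = 0.0214, adjusted p = 0.0607 by permutation). The first gene of each of these 4 pairs had a median r with all genes between -0.04 and 0.07. Such a median does not tell how many genes followed the first gene as closely as its partner did.

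Without the 2 mice farthest from the median of the first gene, r was 0.47 for Col4a1 and Col4a2 (p = 0.0666), 0.53 for Col6a1 and Col6a3 (p = 0.0175), 0.44 for Col15a1 and Col18a1 (p = 0.0935) and 0.55 for Col3a1 and Col1a1 (p = 0.0252), by the same permutation test, so that the relations of Col4a1 with Col4a2 and of Col15a1 with Col18a1 rested in part on these mice. After the SD of gene values of each array was also removed, r was 0.12, 0.35, 0.47 and 0.40 for these pairs, with adjusted p of 0.875, 0.512, 0.375 and 0.375 by permutation, and none of the 9 pairs passed. Without replicate 1, 2 or 4 at 16 weeks only Col6a1 with Col6a3 passed.

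The other 5 pairs did not pass. Col1a1 and Col1a2 had r = 0.33 (p = 0.254, adjusted p = 0.456) and rho = 0.13 (p = 0.614, adjusted p = 0.690 by permutation). Col5a1 and Col5a2 had r = 0.02 and rho = 0.00 (adjusted p = 0.949 and 0.994 by permutation). Col4a3 and Col4a4 had r = 0.19 and rho = 0.24, Col4a5 and Col4a6 0.17 and 0.13, and Col6a1 and Col6a2 0.20 and 0.39, with adjusted p of 0.211 or more by permutation.

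Genes of collagen biosynthesis and assembly outside the chains themselves were examined in the same fit. Of 20 genes for chain folding and modification, 0 passed the test in either direction at 8 against 4 weeks, 12 against 8 weeks or 16 against 12 weeks. The largest differences at 8 weeks were those of P4hb, a subunit of prolyl hydroxylase, at -1.31 (adjusted p = 0.0747), Creb3l1 at -0.91 (adjusted p = 0.0600) and Ppib at -0.89 (adjusted p = 0.259). Of 11 genes for propeptide removal and cross-linking, 12 for cleavage and uptake and 8 receptors, 0 passed in the same 3 comparisons. Of all genes, 4.13% were lower and 3.26% higher at 8 against 4 weeks. In either direction, 0.0055% were called at 12 against 8 weeks and 0.192% at 16 against 12 weeks. At these shares, few calls would fall in lists of this size.

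Of 14 fibril-associated proteoglycans and glycoproteins, 2 were lower at 8 than at 4 weeks, where 4.13% of all genes were lower. Postn, the periostin that binds type 1 collagen, averaged 6.38 at 8 weeks and 7.83 at 4 weeks (log2 fold change -1.45, SE 0.19, adjusted p = 0.00280), and was also lower at 16 than at 12 weeks (-1.05, SE 0.19, adjusted p = 0.0237), where 0.192% of all genes were called. Lum, the keratan sulphate proteoglycan that spaces fibrils, averaged 6.42 at 8 weeks and 7.18 at 4 weeks (-0.76, SE 0.21, adjusted p = 0.0381). Dcn and Sparc had -1.22 and -0.82 and did not pass (adjusted p = 0.128 and 0.102).

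Of 13 regulators known to act on collagen genes, Ccn2, connective tissue growth factor, was lower at 8 weeks, at 3.74 at 8 weeks and 4.99 at 4 weeks (-1.25, SE 0.34, adjusted p = 0.0361). No other regulator was called, where 4.13% of all genes were lower and 3.26% higher. The median log2 fold change of the 6 lists at 8 weeks lay between -0.20 and 0.15, beside 0.05 over all genes.

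Several genes had more than 1 probe set, and these did not always go the same way at 8 weeks. Both bright probe sets of Col1a2 were lower (-1.17 and -0.88, adjusted p = 0.0407 and 0.00996 over 34958 probe sets), while a dim one had 0.05 (adjusted p = 0.822). Both of Col1a1 were negative, at -0.64 and -0.69 (adjusted p = 0.0678 and 0.0562). The second probe sets of Col3a1 and Col4a1 had -0.37 and -0.31 (adjusted p = 0.20 and 0.235), and those of Col4a5 and Col5a2 had 0.02 and 0.25 (adjusted p = 0.951 and 0.266). Col4a2 and Col15a1 had 1 probe set each. A dim probe set of Col8a1 was higher (0.57, adjusted p = 0.0248), although the 2 brighter ones had -0.12 and 0.14 (adjusted p = 0.667 and 0.508). Which transcripts each probe set detects was not tested.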

How the data were processed

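The authors deposited log2 signals of 45101 probe sets on 20 arrays, made by RMA in Expression Console 1.1 per the labels, and no further normalization was applied. RMA sets the arrays to one distribution of probe intensities and compresses low signals, so a fold change of a dim gene is understated. Of the probe sets 34958 had 1 gene symbol, 932 had several and 9211 were not listed. Genes were compared with limma 3.58.1 (R 4.3.3) with age as the factor over all 20 arrays. The collagen genes and all gene lists were chosen with earlier results of these data known. Named were the genes called in any comparison, the 3 of each class with the largest difference between neighbouring ages, and the chain pairs. The p-values of the fit to all 20 arrays set a difference against the spread between mice of an age, with 5 mice at each age. That spread was pooled over the 4 ages and drawn by limma towards that of all genes. Scripts were tested on simulated data. Alternatives were median centring, cyclic loess, the mean of probe sets, single probe sets, removal of genes below the 40th percentile, replicate number as a block, limma-trend with robust variances, array weights, the spread of signal as a covariate, 2 ages alone and each mouse left out. Promoters were taken from RefSeq.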

Additional observations from a re-analysis of the deposited data

Results flagged for a closer look

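Of 168 sets of 5 mice (42 collagen genes at 4 ages), 13 had 1 mouse far from the other 4, or 7.74%, where chance flags about 1 in 20. At 4 weeks, replicate 5 accounted for 5 of the 13. It was the lowest of its age for Col10a1 (4.82, against 5.33 to 5.42 in the others), Col2a1 (4.998, against 5.43 to 5.54), Col4a3 (5.59, against 5.88 to 5.99) and Col4a6 (5.74, against 6.11 to 6.13), and the highest for Col7a1 (8.59, against 6.79 to 7.23). This array had the widest spread of signal of all 20 (SD 1.90). The low value of Col4a3 enters its comparison of 8 against 4 weeks, which had an adjusted p of 0.140 without this mouse. Only 14 genes in all were then called, with Col3a1 the one collagen gene, so this adjusted p does not isolate the low value.

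Replicate 3 at 4 weeks was low for Col1a1 (6.09, against 6.69 to 6.89) and Col6a2 (7.35, against 7.76 to 7.91), and replicate 1 was high for Col22a1 (5.196, against 4.63 to 4.76). At 8 weeks replicate 3 was high for Col13a1 (4.43, against 3.93 to 4.03). At 12 weeks replicate 2 was high for Col12a1 (6.13, against 5.77 to 5.83) and replicate 1 was low for Col14a1 (5.82, against 6.13 to 6.22). At 16 weeks replicate 1, whose array had an SD of 1.75 against 1.39 to 1.52 in the other 4, was high for Col5a2 (6.39, against 5.64 to 5.78) and Col6a1 (7.26, against 6.42 to 6.64). The part of the spread of signal in these values was not tested.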

How the results depend on the processing

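With 5 mice at each age and RMA values, small differences of dim genes could not be resolved, and the counts of calls moved with the number of calls over all genes. For 8 against 4 weeks, the 7 lower genes became 1 with the array spread added as a covariate, 1 with the 2 ages alone and 0 in the arrays with an SD of 1.5 to 1.7. The 1 higher gene became 0 under median centring, the replicate block, array weights, the covariate, the 2 ages alone and these arrays. The median of the fibrillar genes was -0.64 with the filter (dim members left out), that of the basement membrane genes -0.31 with the covariate and -0.33 in these arrays, and that of the others 0.12 with the mean of probe sets. For 12 against 8 weeks, 1 gene was higher with the 2 ages alone, when 274 genes in all were called. The basement membrane median was -0.0752 with the covariate, and the median of the others was 0.0303 in the arrays with an SD of 1.5 to 1.7.

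For 12 against 4 weeks the 1 call became 0 under median centring, the filter and the replicate block, 3 with array weights and 2 with the covariate. With the covariate, 110 genes in all were called at 12 against 4 weeks, 148 at 16 against 4 and 90 for the mean of later ages. With the 2 ages alone, 75 genes in all were called at 16 against 4 weeks. For 16 against 4 weeks the 7 calls became 4 with the replicate block, 2 with the covariate, 2 with the 2 ages alone and 0 in the arrays with an SD of 1.5 to 1.7. For the mean of later ages the 7 lower genes became 4 with the covariate and 1 in these arrays, and the 0 higher became 2 with cyclic loess and 1 with the filter. The F-test gave 2 in place of 5 with the mean of probe sets, the replicate block and the covariate, and 0 in these arrays. The 3 chain pairs became 0 after the spread was removed, when Col5a1 with Col5a2 had r = -0.0152. Single probe sets turned the sign of Col1a2 (0.053) and Col4a5 (0.0171) at 8 weeks and of Col5a2 at 8 weeks (0.25), at 16 weeks (0.13) and in the mean of later ages (0.24). The cause was not tested.

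Replicate numbers did not pair the mice (same-numbered deviations correlated at -0.57 to 0.58, median 0.01), so the block shares only a number; of 23 single-gene calls it kept 14. Leaving out each mouse gave 1 to 8 lower and 0 to 4 higher genes at 8 against 4 weeks, 0 to 1 calls at 12 against 4, 2 to 12 at 16 against 4, 1 to 9 lower and 0 to 3 higher for the mean of later ages, 2 to 9 by the F-test and 1 to 4 pairs. The median of the other types at 8 weeks ran from -0.0818 to 0.0362, and r ran from -0.0595 to 0.442 for Col1a1 with Col1a2 and from -0.18 to 0.26 for Col5a1 with Col5a2.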
